A study of Mus musculus with 12 samples.

Results

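The tumor necrosis factor (TNF) superfamily was followed as 10 genes, 5 ligands and 5 receptors, through bulk mouse tumors grown in wild-type (WT) or Sirpα-deficient (Sirpα-KO) hosts, before and after local X-ray irradiation (IR). The genes were those of a named list whose symbols matched a row of the deposited table, and all 10 listed symbols were found among its 561 genes. The ligands were Tnf, Tnfsf10, Tnfsf11, Tnfsf12 and Tnfsf18, and the receptors were Tnfrsf1b, Tnfrsf4, Tnfrsf9, Tnfrsf11a and Tnfrsf14. The data were 12 profiles made with the NanoString Mouse Immunology Panel, in which colour-coded probes bound to each RNA are counted one by one without amplification. The 3 tumor models were MC38 colorectal tumors and the pancreatic tumors Pan02 and KPC, each in both genotypes, with no IR or with 8 Gy. The mice were C57BL6 and 6 to 8 weeks old per the labels, and tumors were resected 12 h and 18 h after IR, with non-irradiated tumors of both genotypes as the controls. Each profile was 1 pool of RNA from 4 mice, 2 per time point, so the 4 groups (WT no IR, Sirpα-KO no IR, WT IR, Sirpα-KO IR) held 3 profiles each, 1 per tumor model. The deletion was carried by the host mouse and not by the implanted tumor cells. The transcript of the deleted gene was not analysed here, so the genotype labels were not checked against it.

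TNF superfamily ligands are mostly trimeric membrane proteins that can be shed, and their receptors pass the signal through TRAF adaptors to NF-κB and MAP kinases or, for receptors with a death domain, to caspases. Tnf is the inflammatory cytokine of activated macrophages and T cells, Tnfsf10 encodes the death ligand TRAIL, Tnfsf11 encodes RANKL, Tnfsf12 encodes TWEAK, and Tnfsf18 encodes GITRL, a co-stimulatory ligand of antigen-presenting cells. Tnfrsf1b encodes TNF receptor type II, Tnfrsf11a encodes RANK, the receptor of RANKL on osteoclast precursors and dendritic cells, Tnfrsf4 encodes OX40 and Tnfrsf9 encodes 4-1BB, both co-stimulatory receptors of activated T cells, and Tnfrsf14 encodes HVEM, a receptor that binds LIGHT and BTLA. In bulk tumor RNA, fewer cells of a type and less RNA per cell cannot be told apart.

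The depth of the profiles set what could be read from the low genes. The profiles held between 12292 and 403396 counts above background, and both non-irradiated KPC profiles lay at the bottom (21576 in WT and 12292 in Sirpα-KO), against at least 79210 in the others. A single count was worth 3.79 and 6.48 normalized counts in those 2 profiles, and a floor of 3 counts stood at 11.4 and 19.5 there. Of the 120 values of the 10 genes, 15 lay at or under the floor of their own profile, 10 of them in KPC. None of these was in the Sirpα-KO IR group, where the lower end of the whole table lay higher: the 20th percentile of all genes was 20.5 in MC38, 49.5 in Pan02 and 17.8 in KPC, and at most 6.48 in every other profile. Of the 10 genes, 8 reached 50 normalized counts in at least 1 profile and were among the 461 genes tested. Tnfrsf4, Tnfrsf11a and Tnfsf18 passed that filter only through Sirpα-KO IR profiles, and Tnfrsf9 and Tnfsf11 did not pass it. The p-values come from limma on log2(normalized count + 10), blocked on tumor model and adjusted over those genes by Benjamini-Hochberg. Because a group holds 1 pool of each model, the p-values for genotype and IR are set by how far the models disagree. In the contrasts of tumor models, the 4 groups of genotype and IR stand as the replicates of a model. Mouse-to-mouse variation was not measured.

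Tnfrsf11a, encoding RANK, was the member with the largest change. After IR its normalized count in Sirpα-KO hosts was 165 in MC38, 439 in Pan02 and 142 in KPC. In irradiated WT hosts it was 21.8, 44.8 and 33.3 in the same order. Without IR the counts were 22.1, 37.2 and 11.4 in WT and 33.9, 13.7 and 6.48 in Sirpα-KO. The 3 Sirpα-KO IR profiles were therefore the highest of all 12, and the lowest of them was above the highest value of any other group, which was 44.8. Among the genes of its own profile, Tnfrsf11a stood at percentiles 66.7, 86.1 and 77.5 in irradiated Sirpα-KO tumors and at 33.3, 44.2 and 46.7 in irradiated WT tumors.

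**Figure D1:**
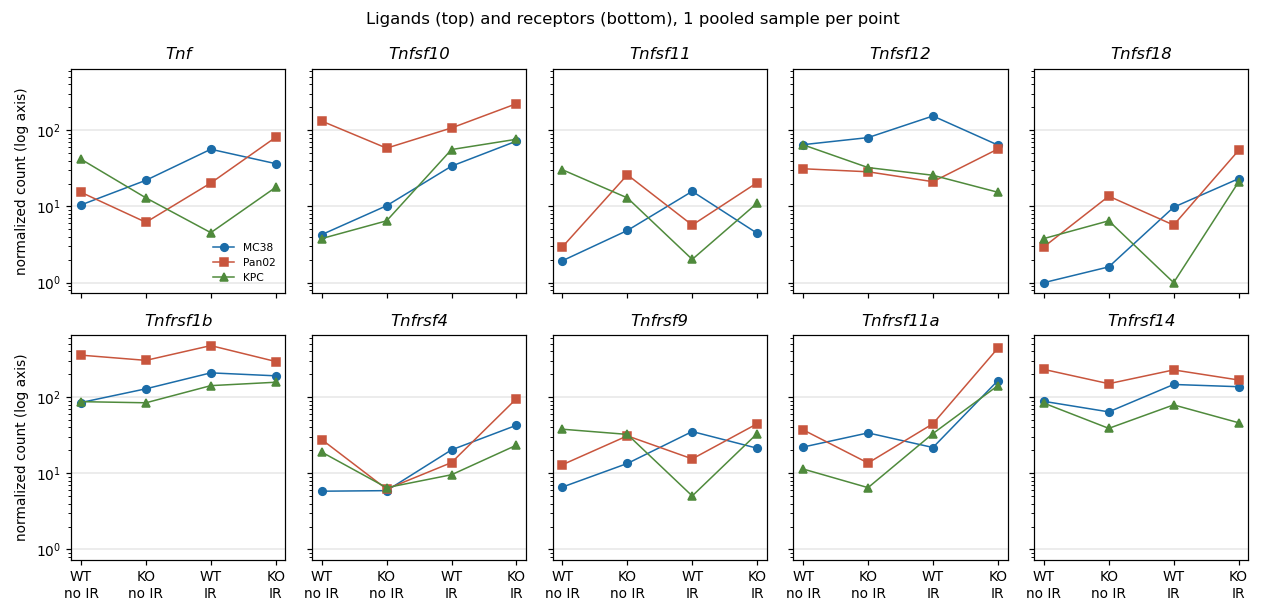
Normalized counts (log axis) of the 5 ligands (top) and 5 receptors (bottom) in the 4 groups; each point is 1 pooled profile and lines join the profiles of 1 tumor model. KO stands for Sirpα-KO. Tnfrsf11a rises to between 142 and 439 in the 3 irradiated Sirpα-KO tumors and is at most 44.8 elsewhere. Tnfrsf1b and Tnfrsf14 are higher in every Pan02 profile than in any MC38 or KPC profile, and MC38 and KPC overlap.

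Between irradiated genotypes Tnfrsf11a was higher in Sirpα-KO by 2.43 ± 0.43 on the log2 scale (SE, 3 profiles per group; 5.40-fold on the scale with the pseudocount of 10; limma adjusted p = 0.00512). The log2 ratio, with a 95% interval for counting error only, was 2.46 ± 0.55 in MC38, 3.03 ± 0.37 in Pan02 and 1.81 ± 0.32 in KPC. Within Sirpα-KO hosts, irradiated tumors exceeded non-irradiated tumors by 3.15 ± 0.43 (limma adjusted p = 0.00368), which placed Tnfrsf11a 1st of 461 genes by p and 3rd by size. That ratio was 1.99 ± 0.44 in MC38, 4.25 ± 0.73 in Pan02 and 3.20 ± 1.13 in KPC, but the lower side rested on 5.5 counts in Pan02 and on the lowest recorded value in KPC. In WT hosts the change with IR was 0.41 ± 0.43 (limma adjusted p = 0.638). The difference between the 2 IR responses was 2.74 ± 0.60 and did not pass the threshold (limma adjusted p = 0.0769), although it ranked 4th of 461 genes by p. Tnfrsf11a was among the 461 genes only through its irradiated Sirpα-KO profiles, so its ranks are no separate support. Fitted without the filter on low values, the limma adjusted p was 0.00409 between irradiated genotypes and 0.00255 for IR in Sirpα-KO hosts.

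The Tnfrsf11a call between irradiated genotypes rested on more than 1 tumor model. Without the Pan02 profiles the adjusted p was 0.426, without the KPC profiles 0.0857, and without the irradiated Sirpα-KO Pan02 profile alone 0.121, while the log2 difference stayed between 2.08 and 2.75. The IR response in Sirpα-KO hosts lost its call without the Pan02 (adjusted p = 0.0738) or KPC profiles (0.0572). Low genes as a class also stood higher in irradiated Sirpα-KO tumors: genes whose mean over both irradiated profiles was under 50 had a median log2 ratio of 0.69 in MC38, 1.78 in Pan02 and 0.67 in KPC, against 0.00, 0.09 and -0.24 for the remaining genes. Among the 114 tested genes that stayed under 50 in all irradiated WT profiles, the median difference was 1.43 and the 90th percentile 2.13, and 6 of them, Tnfrsf11a included, differed by 2.43 or more. To be tested, each of the 114 had to reach 50 outside the irradiated WT group. A positive median was therefore partly set by this selection. With every value under 50 set to 50, Tnfrsf11a was still called in both comparisons. That setting put every profile outside the irradiated Sirpα-KO group at 50, however. Both comparisons were then the same contrast, with a log2 difference of 2.12, and do not count as separate results.

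Tnfsf18, encoding GITRL, was the other member called between irradiated genotypes. Its normalized count was 23.1, 54.4 and 20.9 in irradiated Sirpα-KO tumors (MC38, Pan02, KPC) and 9.78, 5.70 and 1 in irradiated WT tumors. Without IR it was 1, 2.95 and 3.79 in WT and 1.61, 13.7 and 6.48 in Sirpα-KO. The irradiated Sirpα-KO profiles did not overlap any other group in normalized count. Their Tnfsf18 values lay just above the 20th percentile of all genes in those profiles, 20.5, 49.5 and 17.8. Among the genes of its own profile, Tnfsf18 stood no higher in irradiated Sirpα-KO than in irradiated WT tumors of MC38 and Pan02. The percentiles were 24.1 and 21.2 in Sirpα-KO and 24.4 and 23.2 in WT. In KPC it stood higher in Sirpα-KO, with the irradiated WT value at the lowest recorded value. The log2 difference between irradiated genotypes was 1.42 ± 0.36 (limma adjusted p = 0.0208), and between irradiated and non-irradiated Sirpα-KO tumors 1.29 ± 0.36 (limma adjusted p = 0.0169). Neither was above the typical low gene. The median was 1.43 over the 114 tested genes under 50 in all irradiated WT profiles. It was 1.47 over the 147 tested genes under 50 in all non-irradiated Sirpα-KO profiles.

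These Tnfsf18 calls lay wholly at the low end of the scale. The IR call was lost with scaling by the median ratio (adjusted p = 0.0538), with edgeR on recovered counts (0.0677) and with only the compared groups in the fit (0.0721), and the genotype call in the last of these (0.140). With values under 50 set to 50, both differences were 0.04 (adjusted p = 0.829 and 0.691). The genotype call was also lost without the irradiated WT profile of Pan02 (adjusted p = 0.123) or of KPC (0.123), and the IR call without the non-irradiated Sirpα-KO MC38 profile (0.0780). Without the irradiated Sirpα-KO Pan02 profile the gene fell below the filter and was not tested. Leaving out a whole model ended both calls for MC38 (adjusted p = 0.0632 for genotype and 0.119 for IR) and for KPC (0.178 and 0.0851).

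Tnfrsf4, encoding OX40, had normalized counts of 42.7, 95.5 and 23.4 in irradiated Sirpα-KO tumors (MC38, Pan02, KPC) and 20.3, 13.8 and 9.57 in irradiated WT tumors. Without IR it was 5.82, 27.7 and 19.0 in WT and 5.92, 6.20 and 6.48 in Sirpα-KO. The irradiated groups did not overlap, but the Pan02 value in WT without IR lay above the KPC value in irradiated Sirpα-KO. Within its own profile (MC38, Pan02, KPC), Tnfrsf4 stood at percentiles 38.5, 41.4 and 28.9 in irradiated Sirpα-KO tumors. In irradiated WT tumors it stood at 31.7, 29.4 and 31.2, so it was lower in Sirpα-KO for KPC. The rise with IR in Sirpα-KO hosts passed the test (1.82 ± 0.41 on the log2 scale, limma adjusted p = 0.0103), whereas the difference between irradiated genotypes, 1.24 ± 0.41, did not (adjusted p = 0.0673). That difference did pass with scaling by the median ratio (1.25, adjusted p = 0.0491) and without either the irradiated WT MC38 or the irradiated Sirpα-KO KPC profile. The rise was 0.31 with values under 50 set to 50 (adjusted p = 0.287), it lost its call without the KPC profiles (0.0614), and the gene could not be tested without the irradiated Sirpα-KO Pan02 profile. Its non-irradiated Sirpα-KO side lay at 5.5, 2.5 and 1 counts (MC38, Pan02, KPC), with Pan02 and KPC under the floor of 3 counts. In KPC that floor was 19.5 normalized counts, just below the irradiated value of 23.4. Over the 147 tested genes under 50 in all non-irradiated Sirpα-KO profiles, the median rise was 1.47 and the 90th percentile 1.97.

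Tnfsf10, encoding TRAIL, was measured at 72.1, 224 and 76.3 in irradiated Sirpα-KO tumors (MC38, Pan02, KPC) and at 33.9, 107 and 55.9 in irradiated WT tumors. Without IR the counts were 4.27, 132 and 3.79 in WT and 10.2, 58.3 and 6.48 in Sirpα-KO. In MC38 and KPC the irradiated values were above the non-irradiated ones in both genotypes, and in Pan02 this held for Sirpα-KO but not for WT. The rise in Sirpα-KO hosts was 2.06 ± 0.45 on the log2 scale (limma adjusted p = 0.00952). The change in WT hosts was 1.20 ± 0.45 (limma adjusted p = 0.276), and it passed the threshold only where the non-irradiated WT Pan02 profile was left out. The 2 IR responses differed by 0.86 ± 0.63 (adjusted p = 0.572), and the genotypes after IR by 0.76 ± 0.45 (adjusted p = 0.319). The call in Sirpα-KO hosts was lost without the Pan02 (adjusted p = 0.0738) or KPC profiles (0.0641), without the block (0.104), and with values under 50 set to 50 (a change of 1.03, adjusted p = 0.0954).

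Tnf itself had a higher value with IR in Sirpα-KO hosts in all 3 models, by amounts that did not pass the test. In Pan02 and KPC the non-irradiated side of that comparison lay under the floor of 3 counts, at 2.5 and 2 counts. Tnf showed no common direction in the other comparisons. In MC38 the normalized count went from 10.5 without IR to 56.4 with IR in WT hosts and from 22.1 to 36.5 in Sirpα-KO hosts. In Pan02 it went from 15.3 to 20.3 and from 6.20 to 81.0, and in KPC from 41.7 to 4.53 and from 13.0 to 17.8. Irradiated Sirpα-KO tumors were thus above irradiated WT tumors in Pan02 and KPC and below in MC38, and the groups overlapped. The fall with IR in WT KPC was from 11 counts to 9, with 1 count worth 3.79 and 0.50 normalized counts. In Sirpα-KO KPC the irradiated value of 17.8 lay under the floor of the non-irradiated profile, 19.5, so no rise could be read there. The log2 difference between irradiated genotypes was 0.67 ± 0.60 with a 95% interval of -0.65 to 1.99 (limma adjusted p = 0.547), and the IR change in Sirpα-KO hosts was 1.10 ± 0.60 (adjusted p = 0.152).

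The receptors with the steadier counts, Tnfrsf1b and Tnfrsf14, did not pass the test in any comparison of genotype or IR. Tnfrsf1b, the TNF receptor found mainly on leukocytes, went from 85.0 to 208 (MC38), 356 to 475 (Pan02) and 87.2 to 142 (KPC) with IR in WT hosts, a log2 change of 0.75 ± 0.30 (limma adjusted p = 0.278). In Sirpα-KO hosts it went from 129 to 190, 304 to 294 and 84.3 to 157, a change of 0.44 ± 0.30 (adjusted p = 0.258). Tnfrsf14 was lower in the Sirpα-KO than in the WT profile of all 3 tumor models, both with and without IR, but by amounts within the spread between models: -0.64 ± 0.31 without IR (limma adjusted p = 0.967) and -0.39 ± 0.31 after IR (adjusted p = 0.496). The ligand Tnfsf12 differed by -0.18 ± 0.48 between irradiated genotypes (adjusted p = 0.875), with its highest count, 154, in irradiated WT MC38.

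Tnfrsf9 and Tnfsf11, the ligand of RANK, stayed under 50 in all 12 profiles. Tnfrsf9 ranged from 5.04 to 44.7 and Tnfsf11 from 1.94 to 30.3. Fitted without the filter on low values, neither passed the test in any comparison, and the differences between irradiated genotypes were 0.70 ± 0.50 for Tnfrsf9 and 0.31 ± 0.50 for Tnfsf11 (limma adjusted p = 0.415 and 0.802). In the irradiated Sirpα-KO tumors, where Tnfrsf11a was highest, Tnfsf11 was at 4.45 in MC38, 20.5 in Pan02 and 11.1 in KPC, within the range of the other groups.

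**Figure D2:**
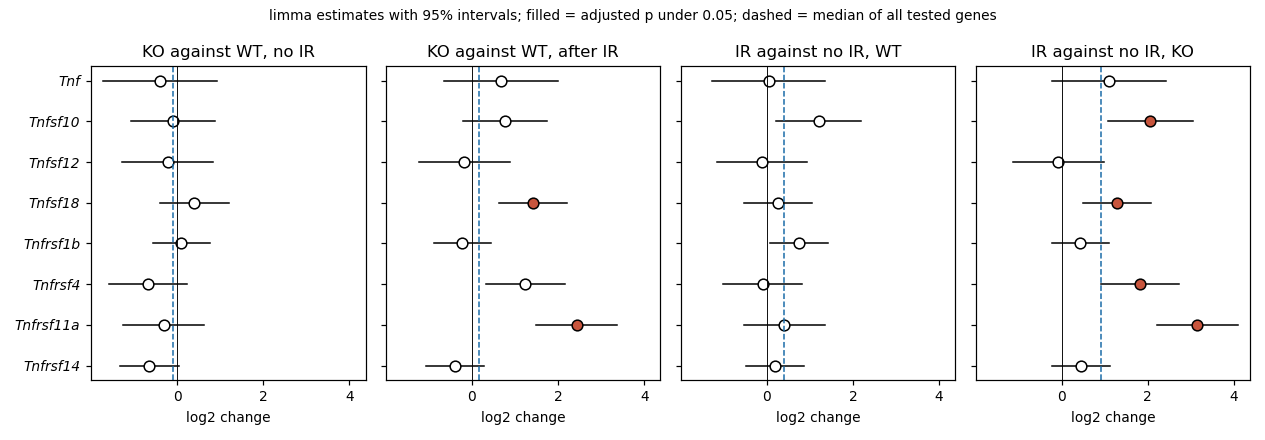
Log2 changes (points) with 95% intervals (lines) of the 8 tested members from limma in 4 comparisons, 3 profiles per group; filled points have an adjusted p under 0.05 and the dashed line is the median of all 461 genes. KO stands for Sirpα-KO. Filled points occur only in the comparisons with irradiated Sirpα-KO tumors, with Tnfrsf11a farthest to the right at 2.43 and 3.15.

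Counted together, 2 of the 8 tested members were higher and none lower in irradiated Sirpα-KO than in irradiated WT tumors, where 15.8% of all 461 genes were called higher. In 3 of the 10 members the irradiated groups did not overlap, with Sirpα-KO higher, against 22.1% of all 561 genes. With IR in Sirpα-KO hosts 4 of 8 members were called higher, against 43.0% of all genes, and 4 of 10 members did not overlap, against 27.6%. These shares were near those of the panel and are no result about the family as a whole. No member was called by limma for IR in WT hosts, for genotype without IR or for the difference of the IR responses, and 2, 0 and 2 members had an unadjusted p under 0.05 there. Over all 461 genes 0 were called in each of these comparisons. At an unadjusted p under 0.05, 75 genes were higher and 1 lower for IR in WT hosts, 1 higher and 11 lower for genotype without IR, and 74 higher and 0 lower for the difference of the IR responses. The edgeR test on recovered counts called 0 members and 0 genes in all 3.

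**Figure D3:**
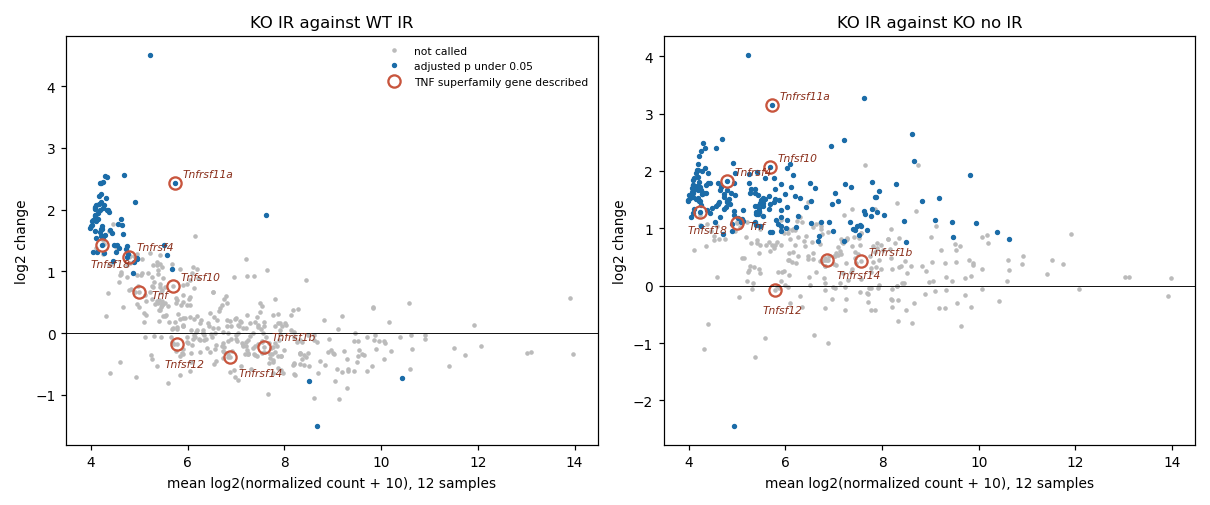
Log2 change of each of 461 tested genes (points) against its mean log2(normalized count + 10) over 12 profiles, for irradiated Sirpα-KO (KO) against irradiated WT tumors (left) and against non-irradiated Sirpα-KO tumors (right); blue points have an adjusted p under 0.05 and circles mark the 8 tested members. Calls crowd at the low end of the level axis, where Tnfsf18 and Tnfrsf4 lie, and in the left panel Tnfrsf11a lies to the right of the other genes with changes of 2.43 or more.

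Promoter sequence was set beside the 4 members that rose with IR in Sirpα-KO hosts, and beside Tnf, to show how unlike these start regions are. RefSeq windows of 250 bases before and 50 after the start site (GRCm38.p6) were found for 9 members, and Tnfsf12 had no entry. The 100 bases before the outermost annotated start of each gene follow, 5′ to 3′ on the strand of the gene. The start site of the window lay 50 bases inside that start for Tnfrsf11a and 100 bases inside it for Tnfrsf4, and at it for the other three. The sequences are given with the TATA box TATAAA in capitals where it occurs.
Tnfrsf11a (chr1:105780573-105780672, + strand): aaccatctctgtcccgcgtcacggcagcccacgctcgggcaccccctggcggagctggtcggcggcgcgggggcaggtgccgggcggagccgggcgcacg
Tnfrsf4 (chr4:156013495-156013594, + strand): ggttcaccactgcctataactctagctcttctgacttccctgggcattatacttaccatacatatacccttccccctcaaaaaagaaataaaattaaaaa
Tnfsf10 (chr3:27316977-27317076, + strand): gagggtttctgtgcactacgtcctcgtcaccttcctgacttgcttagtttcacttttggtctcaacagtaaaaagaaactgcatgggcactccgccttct
Tnfsf18 (chr1:161494557-161494656, + strand): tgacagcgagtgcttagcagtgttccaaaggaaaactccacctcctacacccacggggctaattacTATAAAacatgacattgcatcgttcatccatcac
Tnf (chr17:35202008-35202107, - strand): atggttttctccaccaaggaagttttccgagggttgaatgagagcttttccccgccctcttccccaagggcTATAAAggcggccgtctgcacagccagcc

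The Tnfrsf11a window was rich in CpG dinucleotides, with 43 in 300 bases at 76.7% G+C, more than in 97.4% of 32851 mouse promoters, whose median was 7. The windows of Tnfrsf4, Tnfsf10 and Tnfsf18 held 6 CpG each, and that of Tnf 11. Both strands were searched for 4 motifs. The NF-κB consensus was found only in the second of 2 Tnfrsf9 windows, as overlapping matches, against 8.46% of all promoters. The interferon-stimulated response element core TTCNNTTTC was found in Tnfrsf1b, Tnfrsf4 and Tnfrsf14 (8.56% of all promoters), and the gamma-activated sequence TTCNNNGAA in Tnfrsf1b and Tnfrsf9 (8.30%). TATAAA was found in Tnf, Tnfsf11 and Tnfsf18 (13.6%). No motif was common to the 4 members that rose, and Tnfrsf11a and Tnfsf10 held none of the 4 in this window. These matches describe letters in a short window, not sites of binding.

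As deposited, 4 members passed the test in at least 1 contrast of tumor models, each model being represented by 4 profiles of different genotype and IR state. Only Tnfsf10 and Tnfrsf1b kept a call under every scaling used, both in Pan02 against MC38. In Pan02, Tnfsf10 was between 58.3 and 224, Tnfrsf1b between 294 and 475 and Tnfrsf14 between 150 and 231. In MC38 the same genes ranged from 4.27 to 72.1, from 85.0 to 208 and from 64.1 to 147. Tnfrsf1b and Tnfrsf14 thus did not overlap between these models, whereas Tnfsf10 did. With IR state and genotype in the fit, Pan02 exceeded MC38 by 2.00 ± 0.39 for Tnfsf10, 1.22 ± 0.26 for Tnfrsf1b and 0.82 ± 0.27 for Tnfrsf14 on the log2 scale (limma adjusted p = 0.00305, 0.00561 and 0.0398). These 3 of 8 members compare with 18.4% of all genes called higher in Pan02. The Tnfrsf14 call held with scaling by reference genes (limma adjusted p = 0.0182) but not by the median ratio (0.0692). It held in 4 of the 12 fits that left out 1 profile. It was lost without the WT no IR profile of MC38 (adjusted p = 0.175) or Pan02 (0.109), the Sirpα-KO no IR profile of MC38 (0.108) or Pan02 (0.121), the WT IR profile of MC38 (0.0603), Pan02 (0.0702) or KPC (0.0503), or the Sirpα-KO IR profile of Pan02 (0.0594). Without the WT no IR group, the adjusted p of Tnfrsf1b was 0.0521.

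The contrasts with KPC tumors, whose non-irradiated profiles held the fewest counts, changed with the scaling. Tnfrsf1b ranged from 84.3 to 157 in KPC, Tnfrsf14 from 38.9 to 83.4, Tnfsf10 from 3.79 to 76.3 and Tnfsf12 from 15.4 to 64.5. As deposited, KPC was below Pan02 by 1.55 ± 0.26 for Tnfrsf1b, 1.54 ± 0.27 for Tnfrsf14 and 1.92 ± 0.39 for Tnfsf10 (limma adjusted p = 0.00213, 0.00213 and 0.00229), where 67.0% of all genes were called lower. KPC was below MC38 by 1.21 ± 0.42 for Tnfsf12 and 0.72 ± 0.27 for Tnfrsf14 (adjusted p = 0.0324 and 0.0455), where 44.9% were called lower. Both calls against MC38 were lost when the Sirpα-KO no IR, WT IR or Sirpα-KO IR profile of either model was left out, with adjusted p of Tnfsf12 from 0.0517 to 0.126. Scaling by 14 reference genes moved the median difference of all genes from -0.72 to 0.26 for KPC against MC38 and from -1.03 to -0.27 for KPC against Pan02. After that scaling no member was called in either contrast, Tnfrsf14 against MC38 turned to 0.37 (adjusted p = 0.406), and Tnfsf10 stayed 1.31 below Pan02 (95% interval of the difference -2.22 to -0.41, adjusted p = 0.114).

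**Figure D4:**
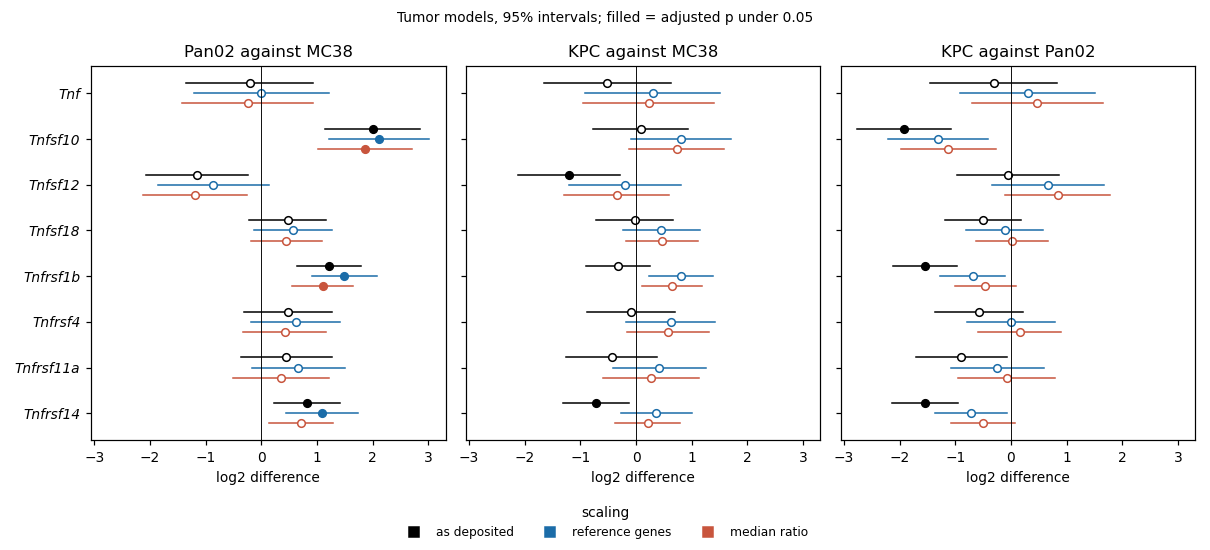
Log2 differences (points) with 95% intervals (lines) of the 8 tested members between tumor models, 4 profiles per model, as deposited (black), scaled by 14 reference genes (blue) and by the median ratio (red); filled points have an adjusted p under 0.05. Tnfsf10 and Tnfrsf1b are higher in Pan02 than in MC38 under all 3 scalings, while no contrast with KPC keeps a filled point after rescaling.

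Other genes of the family and its pathway were counted from lists of ligands, receptors, signalling genes and TNF-responsive genes. Of 8 further ligands, 4 were tested, and Tnfsf15, encoding TL1A, was the only one higher in irradiated Sirpα-KO than WT tumors (1.66 ± 0.47 on the log2 scale, limma adjusted p = 0.0346). Its counts were 12.5, 127 and 34.5 against 5.27, 8.14 and 5.54 in MC38, Pan02 and KPC. Tnfsf15 passed the filter on low values only through the irradiated Sirpα-KO Pan02 profile. With IR in Sirpα-KO hosts Tnfsf15 rose by 1.97 ± 0.47 (adjusted p = 0.0122) and Fasl, the ligand of the death receptor Fas, by 1.67 ± 0.37 (0.00952). The non-irradiated Sirpα-KO values of Tnfsf15 were 1.08, 2.48 and 6.48 (MC38, Pan02, KPC), the lowest recorded in each profile. Fasl also passed the filter only through the irradiated Sirpα-KO Pan02 profile, at 95.45, and its next highest count was 38.27. Of 8 further receptors 3 were tested. Cd40, the co-stimulatory receptor of antigen-presenting cells, rose with IR in Sirpα-KO hosts (1.51 ± 0.37, adjusted p = 0.0124). Fas changed by 0.75 ± 0.37 in the same comparison (adjusted p = 0.117). The median change with IR in Sirpα-KO hosts was 1.24 over the tested ligands and 0.75 over the tested receptors, beside 0.91 for all genes.

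Of 24 signalling genes, 10 rose with IR in Sirpα-KO hosts and none fell, a share near the 43.0% of all genes, with a median log2 change of 0.83. They were the adaptors Traf1, Traf2, Traf4 and Fadd, the NF-κB subunit Relb, the inhibitor Nfkbia and its relatives Nfkbiz and Bcl3, and the kinases Ikbke and Mapk14, with changes between 0.93 (Traf2) and 1.71 (Ikbke). Of 18 tested TNF-responsive genes 9 rose in the same comparison, a share also near that of all genes (median 1.07 beside 0.91). They included Il1b (2.05, limma adjusted p = 0.0124), Lif (1.78, 0.00978) and Cxcl1 (1.79, 0.0124). Between irradiated genotypes, the TNF-responsive genes Ccl20, a chemokine (2.00 ± 0.42, limma adjusted p = 0.00805), and Sele, the endothelial selectin (1.69 ± 0.39, 0.0118), were higher in Sirpα-KO. Both genes passed the filter on low values only through the irradiated Sirpα-KO Pan02 profile, at 88.2 and 90.6. In irradiated Sirpα-KO MC38 and KPC tumors Ccl20 was at 16.9 and 24.0, and Sele at 17.8 and 25.2. In irradiated WT tumors (MC38, Pan02, KPC) Ccl20 was at 1.5, 1 and 1, the lowest recorded values. Sele was at 1.5, 6.51 and 5.54 there. The median of the TNF-responsive genes between irradiated genotypes was 0.26, beside 0.16 for all genes. Traf1, Relb and Nfkbia stood on both lists.

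Marker genes of several leukocytes moved with the same profiles in which Tnfrsf11a, Tnfrsf4 and Tnfsf18 were high. Between irradiated genotypes 4 of 7 tested dendritic cell markers, 4 of 7 B cell markers, 3 of 6 neutrophil markers, 2 of 8 T cell markers and 1 of 3 regulatory T cell markers were higher in Sirpα-KO, and 0 of 12 macrophage and monocyte and 0 of 8 NK cell markers, beside 15.8% of all 461 genes. Markers were tested only if they reached 50 normalized counts in at least 1 profile, which irradiated Sirpα-KO tumors alone could supply. Outside that group the 10 B cell markers summed to at most 132 in any profile, against 524 in irradiated Sirpα-KO Pan02. The B cell share may thus be partly set by this selection. How many markers passed only through irradiated Sirpα-KO profiles was not counted. The summed B cell markers reached 177 to 524 in irradiated Sirpα-KO tumors against 68.5 to 132 in irradiated WT tumors, and the summed regulatory T cell markers 168 to 430 against 82.1 to 158, without overlap. The summed dendritic cell markers overlapped, at 274 to 772 against 218 to 620, as did the T cell sums, at 329 to 1174 against 236 to 417, the neutrophil sums, at 246 to 3050 against 106 to 1835, and the NK cell sums, at 489 to 1398 against 506 to 1965. In irradiated WT tumors 1 or 2 of the 7 dendritic cell markers, 3 or 4 of the 10 B cell markers and 1 to 3 of the 12 T cell markers were at or under the floor, and in irradiated Sirpα-KO tumors 0, 0 or 1, and 0. Of the 6 regulatory T cell markers, 3 in MC38, 1 in Pan02 and 3 in KPC were at or under it in irradiated WT tumors, and 0 in irradiated Sirpα-KO tumors. The part of these cells in the results on Tnfrsf11a, Tnfrsf4 and Tnfsf18 was not tested. The panel held 2 genes listed as markers of epithelial cells, Muc1 and Cd24a, whose sum was 8.37 to 67.7 in MC38, 442 to 549 in Pan02 and 77.8 to 316 in KPC. Muc1 stayed under 50 in every profile, so the Pan02 sums were mostly Cd24a. Whether these counts came from epithelial cells was not tested.

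The genes with the most similar pattern over the 12 profiles were found by Spearman correlation, as a description of profiles that share depth and scaling. For Tnfrsf11a these were Ptger4 (0.97), Irak2 (0.91) and Cd53 (0.90), for Tnfrsf1b Arhgdib (0.98), Runx1 (0.97) and H2-DMa (0.94), and for Tnfsf10 Il1b (0.97), Itga4 (0.97) and C6 (0.95). For Tnfrsf14 they were Csf1r (0.92), Il17ra (0.91) and Ncf4 (0.91), and for Tnfrsf4 Ifng (0.87), Batf (0.86) and Ccl22 (0.84). Lower values marked the nearest genes of Tnf, Tlr3 (0.84), Plaur (0.78) and Cd109 (0.75), and of Tnfsf12, Tgfb2 (0.85), Nod2 (0.73) and Zeb1 (0.73). After scaling by the reference genes the 3 nearest to Tnf were unchanged, and of those nearest to Tnfrsf11a Irak2 alone remained among its nearest 3.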

How the data were processed

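RNA of each profile (100 ng, pooled from 4 mice) was hybridised to the NanoString Mouse Immunology Panel. The authors deducted the negative-control background and applied a factor from the positive controls in nSolver, and the deposited values are these normalized counts, a signal and not raw counts. A second deposited table held the same values (6732 of 6732 identical). Steps between low values gave the worth of 1 count in each profile, from which net counts, floors (3 counts) and 95% counting intervals were computed. Counting intervals cover counting error only, and the ratios within a model have no replicates.

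The 461 genes reaching 50 normalized counts in any profile were tested on log2(value + 10) with limma 3.58.1 (R 4.3.3; lmFit, contrasts.fit, eBayes with trend), the 4 groups fitted together with the tumor model as a block. Alternatives were other scalings, pseudocounts and filters, profiles or models left out, the methods' t-test and edgeR 4.0.16 on rounded recovered counts, where 7 profiles lay at whole counts and 5 were offset by 0.5. Groups came from the labels, which give no replicate numbers. The labels state tumors over 200 mm3 and the design text 250 to 300 mm3.

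Members and gene lists were chosen with earlier results of these data known. Named genes were all members, list genes passing the test or among the 4 with the largest change, and the 3 genes most like each member by Spearman correlation. Cd3eap and Ikbkap were taken off the lists after the files were opened, because they do not belong to those groups. The result of 1 signalling gene is not reported here. No genome build is given in the sources used here. Promoters came from RefSeq (GRCm38.p6).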

Additional observations from a re-analysis of the deposited data

How the results depend on the processing

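With 8 tested members, 2 were called between irradiated genotypes; 1 was called (Tnfrsf11a) with values under 50 set to 50, with a filter at 100 or with only the compared groups in the fit, 0 by the methods' t-test after adjustment, 3 with the median ratio (Tnfrsf4 added), and 0 to 3 when a model or profile was left out. For IR in Sirpα-KO hosts, 4 became 1 (values under 50 set to 50), 2 (filter at 100), 0 (adjusted t-test) and 3 (median ratio, no block, only the compared groups, unadjusted t-test, edgeR), and 0 to 4 with a model or profile left out. For IR in WT hosts, 0 became 0 to 1, with Tnfsf10 called without the non-irradiated WT Pan02 profile, and for the difference of IR responses 0 to 1, with Tnfrsf11a called without the non-irradiated Sirpα-KO MC38 profile (adjusted p = 0.0303). Genotype without IR kept 0 in all 29 alternatives.

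For Pan02 against MC38, 3 became 0 by the adjusted t-test and 1 to 4 with profiles or groups left out, where Tnfsf12 was the member added. For KPC against MC38, 2 became 0 (reference genes, median ratio, values under 50 set to 50, adjusted t-test), 1 (no filter, only the compared models, unadjusted t-test) and 0 to 2 with profiles, models or groups left out; Tnfrsf14 turned from -0.72 to 0.37 (reference genes) and 0.21 (median ratio). For KPC against Pan02, 3 became 0 with either rescaling. Leaving out single profiles, or single groups in the contrasts of models, was chosen after seeing the data. The causes were not tested.

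Depth limits values under about 20 in non-irradiated KPC tumors, where 1 count is worth up to 6.48. The profiles were paired by tumor model, the block of the fit; without it 2 members were still called between irradiated genotypes, and 3 for IR in Sirpα-KO hosts, Tnfsf10 being lost.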
